A study of Solanum chacoense with 24 samples.

Results

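Leaves of 2 Solanum chacoense genotypes were compared before any Colorado potato beetle was placed on them, in all 8 of the 24 libraries of the study that were harvested at 0 h. The 4 USDA8380-1 libraries and the 4 EE501F2_093 libraries each comprised 2 from the control cage and 2 from cages assigned to beetles, and none of these plants had yet received beetles. The labels' protocols give 6 plants of each genotype, 15 weeks old and caged in pairs of 2, with 2 cages assigned to beetles and 1 control cage. Both control libraries of a genotype therefore came from a single cage. Leaf tissue was pooled for each library, and the labels count such a pool as a biological replicate without saying which plants entered it. The edgeR p-values of the main fit measure the spread between pools of the same genotype, cage assignment and hour, taken over all 24 libraries. The difference between control and beetle-assigned pools of a genotype at 0 h is not part of that spread. Pools may share plants.

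Solanum chacoense is a wild relative of the cultivated potato and a source of insect resistance in potato breeding. Its leaves make steroidal glycoalkaloids, which are bitter defence compounds built from cholesterol and sugars. USDA8380-1 is known as a clone with leptines, acetylated forms of these compounds that deter the Colorado potato beetle. The identifiers in the files follow the naming scheme of the potato DM reference annotation, and no file used here pairs them with names or functions. No gene of glycoalkaloid synthesis, no leaf marker and no defence gene could therefore be singled out, and the labelled tissue could not be checked against markers. Genes are described below by level, by chromosome (the 2 digits after DM in the identifier) and by their neighbours.

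In 7 of the 8 libraries 25050119 to 50952957 reads were counted on genes. USDA8380-1 beetle-assigned replicate 3, called the shallow library below, had 2114184. That library stood apart in other ways too. Reads outside genes made up 17.3% of its reads, against 7.66 to 9.53% in the other USDA8380-1 libraries and 8.69 to 11.9% in EE501F2_093. Here the whole is the reads on genes, outside genes or overlapping more than 1 gene. For genes read in EE501F2_093 and at 0 in 2 other USDA8380-1 libraries, the shallow library held 9.56% of the EE501F2_093 level (95% Poisson interval 7.14 to 12.5, counting error only). The 3 other USDA8380-1 libraries held 0.0533 to 0.418% of it by the same rule. In the opposite direction, EE501F2_093 libraries held 0.0730 to 1.10% of the USDA8380-1 level of genes read in USDA8380-1. The part of these reads in the results was not tested. Counts of calls and the descriptions drawn from them are given with and without the shallow library, and where a single value stands the library is in it.

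The spread between libraries of 1 genotype was larger in USDA8380-1. The biological coefficient of variation was 0.446 over the 4 USDA8380-1 libraries, 0.364 without the shallow library, and 0.304 over the 4 EE501F2_093 libraries. Across the genes tested, the log2(CPM + 1) values of 3 USDA8380-1 libraries without the shallow one correlated pairwise at 0.958 to 0.975, and those of the EE501F2_093 libraries at 0.971 to 0.987. Pairs of 1 library from each genotype, again without the shallow library, correlated at 0.879 to 0.950. The shallow library correlated with the other USDA8380-1 libraries at 0.885 to 0.943 and with EE501F2_093 libraries at 0.903 to 0.922. These are correlations across genes, which are not independent replicates.

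The genotypes differed at 4118 of 24870 genes tested (16.6%), of which 2178 (8.76%) were higher and 1940 (7.80%) lower in USDA8380-1, by edgeR's quasi-likelihood test at a Benjamini-Hochberg adjusted p under 0.05. Without the shallow library 3397 of 25580 genes were called (13.3%), and 3073 of these were among the 4118, each with the same sign. Leaving out each of the 8 libraries in turn gave 2119 to 3397 calls. The count fell to 2119 without EE501F2_093 control replicate 2 (962 higher, 1157 lower), to 2303 without EE501F2_093 beetle-assigned replicate 2 (1045 higher, 1258 lower) and to 2619 without EE501F2_093 beetle-assigned replicate 1 (1271 higher, 1348 lower). In these 3 fits the lower calls led, so which direction had more calls depended on single EE501F2_093 libraries. It was 2617 without USDA8380-1 control replicate 2 and 2727 without control replicate 3, where the higher calls led as in the full set. In bulk leaf tissue, fewer cells of a type and less RNA per cell cannot be told apart. The values are read counts against one annotation, and equal mapping of reads from the 2 genotypes was not tested. Read fate was compared as well, as a percent of the reads on genes, outside genes or overlapping more than 1 gene. Reads outside genes averaged 11.0% ± 4.33 in USDA8380-1 and 10.2% ± 1.31 in EE501F2_093 (SD, n = 4 each, exact two-sided permutation p = 0.943, adjusted p = 0.943 over 2 measures). The order turned without the shallow library, with 8.84% ± 1.02 in USDA8380-1 (SD, n = 3) and 10.2% ± 1.31 in EE501F2_093 (SD, n = 4, exact two-sided permutation p = 0.171). Ambiguous reads, which overlap more than 1 gene and are counted for none, averaged 0.108% ± 0.00752 in USDA8380-1 and 0.109% ± 0.00326 in EE501F2_093 (SD, n = 4 each, exact two-sided permutation p = 0.886). Neither difference passed the test. The smallest p that 4 against 4 libraries can give is 0.0286.

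The number of genes with reads did not tell the genotypes apart either. At 1 common depth of 2114184 counts, 21614 to 21984 genes had at least 1 count in USDA8380-1 libraries and 21648 to 22074 in EE501F2_093 libraries. The means differed by less than the spread between libraries (exact two-sided permutation p = 0.971, n = 4 each).

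Most of the called differences lay under 5 on the log2 scale. Of the 4118 genes, 757 changed by less than 1 on the log2 scale, 1370 by 1 to 2 and 1428 by 2 to 5, and 563 by at least 5 (13.7% of those called). The direction varied with size. Among the changes of 2 to 5, 865 were higher and 563 lower in USDA8380-1 (60.6% higher). Among those of at least 5, 239 were higher and 324 lower (42.5% higher). At the small end, 298 were higher and 459 lower (39.4% higher). The shares higher in these 3 classes, of 1238, 584 and 473 genes, were 60.4%, 39.7% and 45.5% without the shallow library. Fitted changes of at least 5 often rest on a genotype with few or no reads, and their size is then set by the prior count of the fit.

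Direction also varied with level. CPM here scales counts to the library total and not to gene length, so classes of CPM hold short and long genes of unlike abundance. Among genes with a mean of 1 to 10 CPM over the 8 libraries, 1703 of 8289 were called (20.5%), 1025 of them higher and 678 lower in USDA8380-1. Among those over 100 CPM, 196 of 1562 were called (12.5%), 53 higher and 143 lower. With the shallow library left out, 1457 of 8355 (17.4%) were called in the class of 1 to 10 CPM, 858 higher and 599 lower, and 139 of 1571 (8.85%) in the class over 100 CPM, 41 higher and 98 lower. The genes under 1 CPM had 805 calls among 5073 (15.9%), with a median absolute log2 fold change of 4.41 for the called genes and a median standard error (SE) of 0.92 for all genes of the class. The class of 10 to 100 CPM had 1414 calls among 9946 (14.2%), with a median change of 1.19 and a median SE of 0.25.

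**Figure D1:**
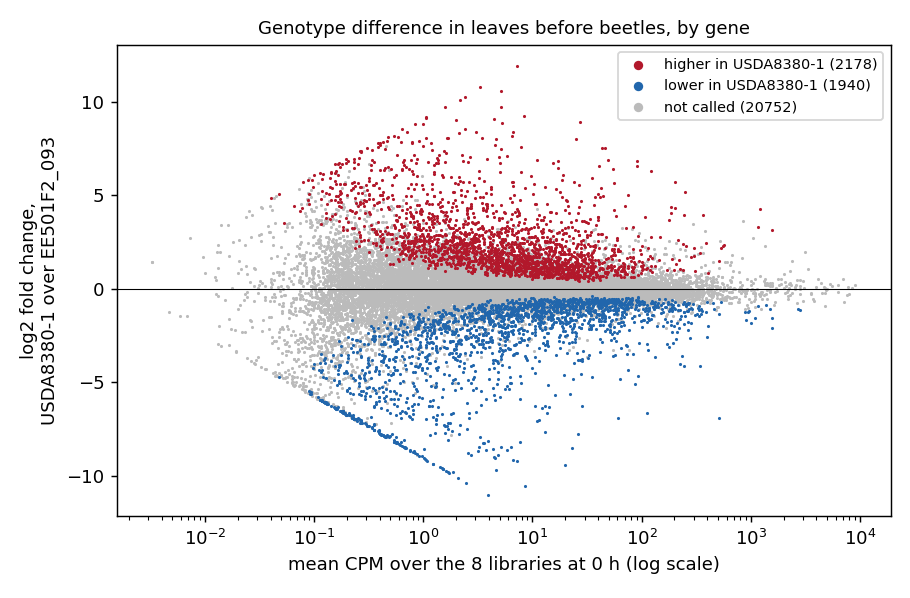
Each point is 1 of the 24870 genes tested at 0 h, placed by its mean CPM over the 8 libraries (x axis, log scale) and its fitted log2 fold change of USDA8380-1 over EE501F2_093 (y axis). The 2178 genes called higher and the 1940 called lower in USDA8380-1 are coloured. Over 100 CPM the lower calls outnumber the higher ones, 143 to 53, and the straight lower edge is formed by genes with few or no reads in USDA8380-1.

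Called genes were 16.6% of those tested, and their shares of the counts on genes are given here by library. Genes called higher took 5.56 to 6.98% of the counts on genes in USDA8380-1 libraries and 1.47 to 1.91% in EE501F2_093 libraries. Genes called lower took 3.13 to 5.73% in USDA8380-1 libraries and 9.19 to 12.0% in EE501F2_093 libraries. These shares describe the calls and are no test, since the same libraries chose the genes.

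Libraries of the genotypes did not overlap in CPM at 5815 of 24870 genes (23.4%). Of the genes called higher 77.5% had no overlap, of those called lower 87.4%, and of those not called 11.7%. Over the 7 libraries other than the shallow one 9063 of these genes did not overlap (36.4%), 4553 higher and 4510 lower in USDA8380-1. By chance alone, 3 against 4 libraries separate more readily than 4 against 4. How much of the rise from 5815 to 9063 genes came from group size or from the omitted library was not tested.

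By the rule for naming genes, the 2 higher and 2 lower genes of highest mean CPM are given here in every library. They were taken from 1175 higher and 1055 lower genes that were called with and without the shallow library, had an absolute log2 fold change of at least 1 and did not overlap between genotypes. The absence of overlap was thus part of the choice. What these genes do is not annotated in the files used here.

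Soltu.DM.09G025890.2, on chromosome 9, had 6153 and 650.4 CPM in the control and 3071 and 1307 CPM in the beetle-assigned plants of USDA8380-1, the last value in the shallow library. It had 141.7 and 248.1 CPM in the control and 454.0 and 483.2 CPM in the beetle-assigned plants of EE501F2_093. The USDA8380-1 control plants held both the highest and the lowest value of their genotype, so the level was uneven among USDA8380-1 pools. The means were 2795 ± 2461 CPM in USDA8380-1 and 331.8 ± 164.3 CPM in EE501F2_093 (SD, n = 4 each). On the log2 scale it was higher by 3.17 (SE 0.88, edgeR adjusted p = 0.0224). The call ended when any of 6 among the 8 libraries was omitted. Without USDA8380-1 control replicate 2 the value was 1.98 (edgeR adjusted p = 0.143), and in the 5 other such fits it was 2.80 to 3.40 (edgeR adjusted p = 0.0674 to 0.0918).

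Soltu.DM.09G025910.1 lies 2 places further on in the order of the identifiers and followed the same pattern. It had 4534 and 379.5 CPM in the control and 2277 and 1236 CPM in the beetle-assigned plants of USDA8380-1. In EE501F2_093 it had 59.4 and 210.9 CPM in the control and 355.5 and 274.7 CPM in the beetle-assigned plants. Again USDA8380-1 control replicate 2 was the highest library and control replicate 3 the lowest of its genotype. Its fitted difference on the log2 scale was 3.33 (SE 0.99, edgeR adjusted p = 0.0306), and 1.98 without USDA8380-1 control replicate 2 (edgeR adjusted p = 0.192). This call, too, ended when any of 6 among the 8 libraries was omitted, and the 5 fits other than that without control replicate 2 gave 3.01 to 3.92 (edgeR adjusted p = 0.0725 to 0.123). Whether these 2 genes are near-identical copies that share reads cannot be told from the files.

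The genes around this pair leaned the same way. Of the 7 genes from 2 places before to 2 places after the pair, 6 were tested, and the 4 others of these had log2 fold changes of 1.80 to 3.93, all higher in USDA8380-1. Of these 4 genes 1 was called, and the edgeR adjusted p ran from 0.00867 to 0.134. This neighbourhood was looked at after the values of the pair were seen. The pair also moved after 0 h in both genotypes. Soltu.DM.09G025890.2 averaged 8279 and 11380 CPM in USDA8380-1 control plants at 24 and 48 h, against 4011 and 1545 CPM in EE501F2_093 control plants. Soltu.DM.09G025910.1 averaged 7012 and 10220 CPM in USDA8380-1 control plants at 24 and 48 h, against 3510 and 2014 CPM in EE501F2_093 control plants. Both genotypes were thus at their low end for this pair at 0 h, among the harvests of the control plants.

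In the other direction, Soltu.DM.09G023580.1 had 171.2 and 233.4 CPM in the control and 1201 and 1638 CPM in the beetle-assigned plants of USDA8380-1. It had 2762 and 2490 CPM in the control and 1971 and 2108 CPM in the beetle-assigned plants of EE501F2_093. The beetle-assigned USDA8380-1 plants lay between their control plants and EE501F2_093. The means were 810.7 ± 725.3 CPM in USDA8380-1 and 2333 ± 360.8 CPM in EE501F2_093 (SD, n = 4 each). USDA8380-1 thus stood at a fitted log2 difference of -2.11 (SE 0.42, edgeR adjusted p = 0.00320), with -2.24 to -2.01 when each of the 8 libraries was omitted in turn. With the 0 h libraries alone as 2 groups of 4 it was -1.52 and not called (edgeR adjusted p = 0.143). By arm it was -3.70 (SE 0.64, edgeR adjusted p = 0.00249) in control plants and -0.52 (SE 0.57, edgeR adjusted p = 0.695) in beetle-assigned plants. The difference between the arms, 3.17 (SE 0.83), did not pass the adjustment of edgeR (adjusted p = 0.589).

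Soltu.DM.04G023400.1, on chromosome 4, had 589.5 and 972.9 CPM in the control and 1000.0 and 1288 CPM in the beetle-assigned plants of USDA8380-1. It had 1989 and 2759 CPM in the control and 1545 and 1849 CPM in the beetle-assigned plants of EE501F2_093. The highest USDA8380-1 value was that of the shallow library. The fitted difference on the log2 scale was -1.09 (SE 0.31, edgeR adjusted p = 0.0256). Leaving out 1 library gave -1.29 to -0.93, and 5 of these 8 fits ended the call, among them that without USDA8380-1 control replicate 2 (edgeR adjusted p = 0.108).

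**Figure D2:**
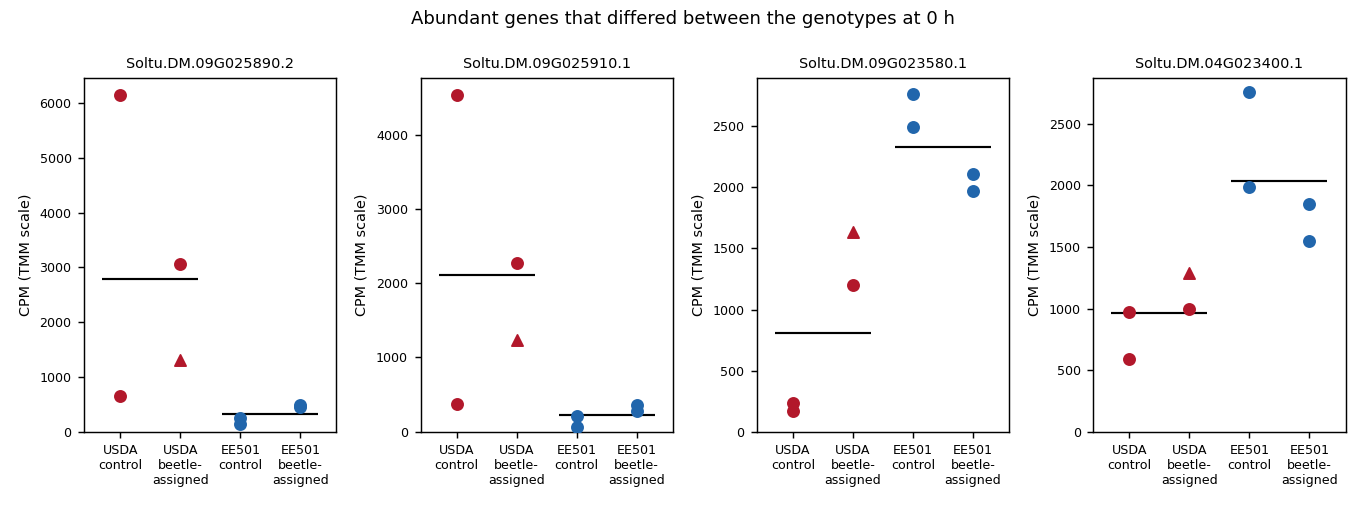
CPM of the 4 named genes (y axes, linear, from 0) in each library at 0 h, with USDA8380-1 in red and EE501F2_093 in blue, by cage assignment. Horizontal lines are means over the 4 libraries of a genotype, and the triangle is the shallow library. The genotypes do not overlap, by the choice of genes, and for Soltu.DM.09G023580.1 the beetle-assigned USDA8380-1 plants, at 1201 and 1638 CPM, lie between their control plants and EE501F2_093.

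The comparison was then made separately in the 2 sets of cages, which share no library and no cage. Each genotype had 1 control cage of 2 plants, so in control plants genotype and cage cannot be told apart. In control plants 2582 of 24870 genes were called (10.4%), 1357 (5.46%) higher and 1225 (4.93%) lower in USDA8380-1. Leaving out any 1 of the 4 control libraries lowered this to between 545 and 996, with 631 without USDA8380-1 replicate 2 and 948 without replicate 3. It was 545 without EE501F2_093 replicate 2 (158 higher, 387 lower) and 996 without EE501F2_093 replicate 1 (376 higher, 620 lower), where the lower calls led. In beetle-assigned plants 571 were called (2.30%), 307 (1.23%) higher and 264 (1.06%) lower, and without the shallow library 308. There the count was 114 without EE501F2_093 replicate 1 (47 higher, 67 lower), 120 without EE501F2_093 replicate 2 (47 higher, 73 lower) and 927 without USDA8380-1 replicate 2. Without that replicate, the shallow library was the sole USDA8380-1 library of its set. The sets shared 453 calls, which were 17.5% of the calls in control plants and 79.3% of those in beetle-assigned plants, all with the same sign. Of the genes called in control plants, 2399 (92.9%) had the same sign in beetle-assigned plants, and of the genes called in beetle-assigned plants 563 (98.6%) had the same sign in control plants. Among all genes tested 65.1% had the same sign in both sets. The sets shared 295 calls without the shallow library, all with the same sign, which were 11.2% of 2624 calls in control plants and 95.8% of the 308 in beetle-assigned plants.

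The size of the difference was not even between the 2 sets. Genes called in control plants had a median absolute log2 fold change of 2.86 there and 1.40 in beetle-assigned plants, and without the shallow library 2.73 and 1.48. Genes called in beetle-assigned plants had 3.23 there and 2.85 in control plants. Over all 24870 genes tested the median was 0.61 in control plants and 0.52 in beetle-assigned plants. A list called in one set favours large values in that set, so a list chosen without any 0 h library was used as well. For 6123 genes called between the genotypes in the 24 and 48 h libraries (25.1% of 24395), the median difference at 0 h, counted in the direction of the later one, was 1.50 in control plants and 1.14 in beetle-assigned plants. It was 1.19 in beetle-assigned plants without the shallow library and 1.02 without replicate 2, which leaves the shallow library as the sole USDA8380-1 library of that set. The difference was the larger one in control plants for 3890 of the 6123 genes (63.5%), a share not computed for all genes tested. The later libraries came from the same cages, so this list is no independent sample of plants.

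Whether the genotype difference itself differed between the 2 sets of cages was tested gene by gene. Over all 24 libraries this test called 0 of 24870 genes in edgeR (0%) and 66 of 24870 in DESeq2. Over the 0 h libraries alone edgeR called 12 of 23678. Before adjustment 1826 of the 24870 genes had an edgeR p under 0.05 in the fit of all 24 libraries. Leaving out a library leaves a single one in its group, and without USDA8380-1 beetle-assigned replicate 2 this is the shallow library. The fit without the shallow library tested 25580 genes, and the fit without that replicate 2 tested 25706. Without the shallow library edgeR again called 0, and 782 genes had an unadjusted p under 0.05. Without USDA8380-1 beetle-assigned replicate 2, it called 185.

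**Figure D3:**
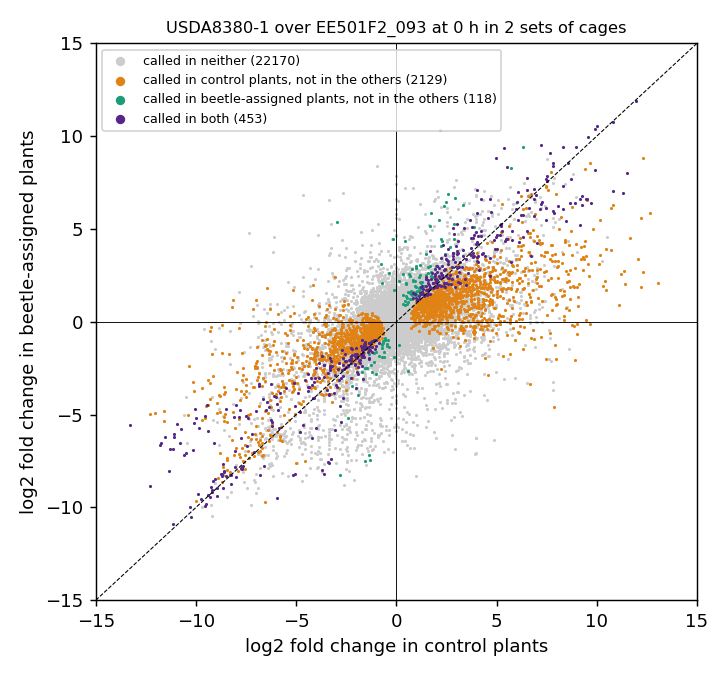
Each point is 1 gene, placed by its log2 fold change of USDA8380-1 over EE501F2_093 in control plants (x axis) and in beetle-assigned plants (y axis) at 0 h, and the dashed line marks equal values. The 453 genes called in both sets all lie in the lower left or upper right corner of the plot. Genes called in control plants lie mostly between the dashed line and the x axis, with medians of 2.86 on the x axis and 1.40 on the y axis for the absolute value.

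Each 0 h library was also placed between the genotypes by 327 genes with a large later difference, on a log2(CPM + 1) scale where 0 is the mean of the 24 and 48 h EE501F2_093 libraries and 1 that of USDA8380-1. USDA8380-1 control replicates 2 and 3 had a median position of 1.06 and 1.09, and the beetle-assigned replicate 2 had 1.00. The shallow library was at 0.711, toward EE501F2_093. The 4 EE501F2_093 libraries lay between -0.078 and 0.076. In the shallow library the median was 0.797 for the 171 genes higher in USDA8380-1 and 0.658 for the 156 lower ones. This scale was added after the data were seen and is a description.

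At the far end were genes read in 1 genotype and almost not in the other. They were defined by a mean of at least 1 CPM in one genotype and at most 3 counts over the 4 libraries of the other. There were 53 such genes read in USDA8380-1 and 104 read in EE501F2_093, and 16 and 47 of them had no count at all in the other genotype. Without the shallow library there were 54 and 117, with 18 and 75 at no count. Which list was longer changed when the libraries were thinned, and the reason was not tested. Total counts of the genotypes were unequal, so unthinned 3 counts are not the same CPM floor in both. With all 0 h libraries thinned to 1 depth, where 3 counts allow a higher CPM, 691 genes were read in USDA8380-1 and 454 in EE501F2_093, with 156 and 126 at no count. Levels were low on both sides, with a median of 2.11 CPM in USDA8380-1 for its 53 genes and of 1.98 CPM in EE501F2_093 for its 104.

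The spread over libraries is given for both lists. Of the 104, 89 had at least 0.3 CPM in all 4 EE501F2_093 libraries, and 24 had over 50% of their summed CPM in 1 library (23.1%). That library was beetle-assigned replicate 1 for 16 of the 24 and control replicate 2 for 8. Of the 53 in USDA8380-1, 35 had at least 0.3 CPM in each of the 3 libraries other than the shallow one. In this list 23 had over 50% of their summed CPM in 1 library (43.4%), which was control replicate 2 for 15 and the shallow library for 6. The difference between these shares was not tested.

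The genes of highest CPM in each list show the contrast. In USDA8380-1 that gene, on chromosome 7, had 71.0 and 16.2 CPM in control plants and 0.209 and 0 CPM in beetle-assigned plants. EE501F2_093 had 3 counts of it in all, a ratio of 1105 between summed counts scaled to the total counts of each genotype (exact 95% interval 377.6 to 5362, counting error only). Its reads were those of the USDA8380-1 control cage at 0 h, since group means in USDA8380-1 at 24 and 48 h were 0.0385 to 0.380 CPM. The next gene, on chromosome 6, had 52.6 and 10.7 CPM in control plants and 0.131 and 0 CPM in beetle-assigned plants of USDA8380-1, with 2 counts in EE501F2_093. Its group means at 24 and 48 h were 0.330 to 1.35 CPM in USDA8380-1 and 0 to 0.0761 CPM in EE501F2_093. At 0 h both genes were read in USDA8380-1 mainly in its control cage.

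In the EE501F2_093 list the leading gene, on chromosome 12, had 0 CPM in the 3 deep USDA8380-1 libraries and 0.394 CPM, 1 count, in the shallow one. It had 20.0 and 17.9 CPM in the control and 14.7 and 14.8 CPM in the beetle-assigned plants of EE501F2_093. The next one, also on chromosome 12, had 0 and 0 CPM in the control and 0.0262 and 0.788 CPM in the beetle-assigned plants of USDA8380-1, the last value in the shallow library. It had 10.2 and 11.9 CPM in the control and 6.93 and 8.61 CPM in the beetle-assigned plants of EE501F2_093. Its ratio of summed counts scaled to the total counts of each genotype, EE501F2_093 over USDA8380-1, was 305.3 (exact 95% interval 104.2 to 1482, counting error only). Both genes were read in every EE501F2_093 pool at like levels. By chromosome, the EE501F2_093 list had 16.3% of its genes on chromosome 8, 15.4% on chromosome 12 and 14.4% on chromosome 1, which held 7.46%, 7.09% and 12.7% of all genes tested. The USDA8380-1 list had 13.2% on each of chromosomes 4, 7, 8 and 9, which held 9.24%, 7.07%, 7.46% and 7.35%.

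Genes that differed were found on every chromosome. The share called was lowest on chromosome 6, with 300 of 2163 genes (13.9%), and highest on chromosome 10, with 338 of 1699 (19.9%), and chromosome 12 followed with 340 of 1763 (19.3%). Without the shallow library chromosome 10 still had the highest share, 15.9%, while chromosome 7 had the lowest, 10.9%. The balance of directions was least even on chromosome 11, with 168 genes higher and 96 lower in USDA8380-1 (63.6% higher), and the lower calls led on chromosome 1, with 226 higher and 247 lower, and on chromosome 2, with 201 higher and 211 lower. Called differences of at least 5 on the log2 scale made up 3.56% of the genes tested on chromosome 8 and 3.52% on chromosome 12, against 1.18% on chromosome 5, 1.10% on chromosome 11 and 2.26% of all genes tested. No test was made of these shares.

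**Figure D4:**
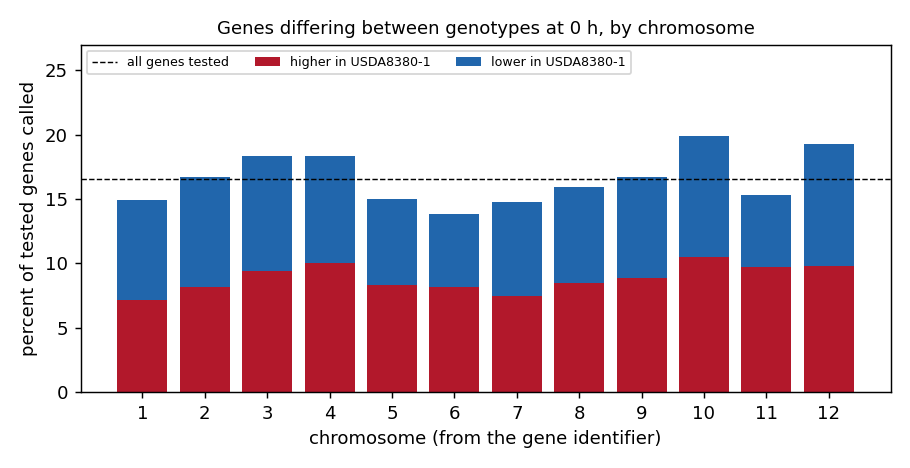
Percent of tested genes called at 0 h on each chromosome, read from the identifier (x axis), split into higher (red) and lower (blue) in USDA8380-1. The dashed line is the 16.6% of all genes tested, and the bars run from 13.9% on chromosome 6 to 19.9% on chromosome 10.

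The neighbours of called genes were described next. Of the genes next to a called gene in the order of the identifiers, 22.9% were called, against 16.6% of all genes tested. In 526 of 20394 neighbouring pairs both genes were called in the same direction, and in 242 in opposite directions. Of the pairs with both called 68.5% thus had the same direction, while a free mixing of the higher and lower calls would give 50.2%. Among the pairs in opposite directions, 51 had both changes at 2 or more on the log2 scale. Without the shallow library 395 pairs had the same and 160 opposite directions. Overlapping or near-identical neighbours that share reads cannot be told from the counts.

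Long runs were few. There were 72 runs of at least 3 neighbouring genes called in the same direction, with 237 genes or 5.76% of those called. The 5 runs of at least 5 genes were all lower in USDA8380-1, and 3 such runs, again all lower, were found without the shallow library. Of genes next to a called gene 19.8% were then called, against 13.3% of all genes tested.

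The longest run comprised 7 genes on chromosome 1 with nearly the same change, at log2 fold changes of -1.89 to -1.40 and edgeR adjusted p of at most 0.0185. Summed over the 7 genes, USDA8380-1 had 107.9 and 126.7 CPM in control plants and 211.2 and 229.0 CPM in beetle-assigned plants. EE501F2_093 had 554.7 and 597.4 CPM in control plants and 534.2 and 548.9 CPM in beetle-assigned plants. The USDA8380-1 pools fell into 2 levels by cage assignment, and both lay below all EE501F2_093 pools. The highest of them, 229.0 CPM, was the shallow library. All 7 genes had the same sign in each set of cages and were called without the shallow library. At 24 and 48 h the summed group means were 133.0 to 270.4 CPM in USDA8380-1 and 509.4 to 860.0 CPM in EE501F2_093.

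A run of 6 genes on chromosome 8 was read in EE501F2_093 and not in the 3 deep USDA8380-1 libraries. Summed CPM were 0 and 0 in the control plants and 0 and 1.18 in the beetle-assigned plants of USDA8380-1, the last value in the shallow library. They were 12.5 and 12.6 in the control plants and 10.7 and 11.7 in the beetle-assigned plants of EE501F2_093. At later harvests summed group means were at most 0.0370 CPM in USDA8380-1 and 9.27 to 14.2 CPM in EE501F2_093. Of the 6 genes, 5 had no read in any USDA8380-1 library at 0 h, and 4 were called without the shallow library.

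The longest run of genes higher in USDA8380-1 comprised 4 genes, also on chromosome 8, with log2 fold changes of 5.59 to 8.08. Of these 4 genes, 3 were called without the shallow library, which breaks the run. Summed CPM were 70.1 and 4.30 in the control and 3.61 and 7.88 in the beetle-assigned plants of USDA8380-1. In EE501F2_093 they were 0.0324 and 0.0375 in the control and 0.282 and 0.0817 in the beetle-assigned plants. All USDA8380-1 pools lay above all EE501F2_093 pools, with control replicate 2 far above the rest. At later harvests the summed group means were 9.33 to 227.0 CPM in USDA8380-1 and 0.214 to 4.28 CPM in EE501F2_093, highest in both genotypes in beetle plants.

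**Figure D5:**
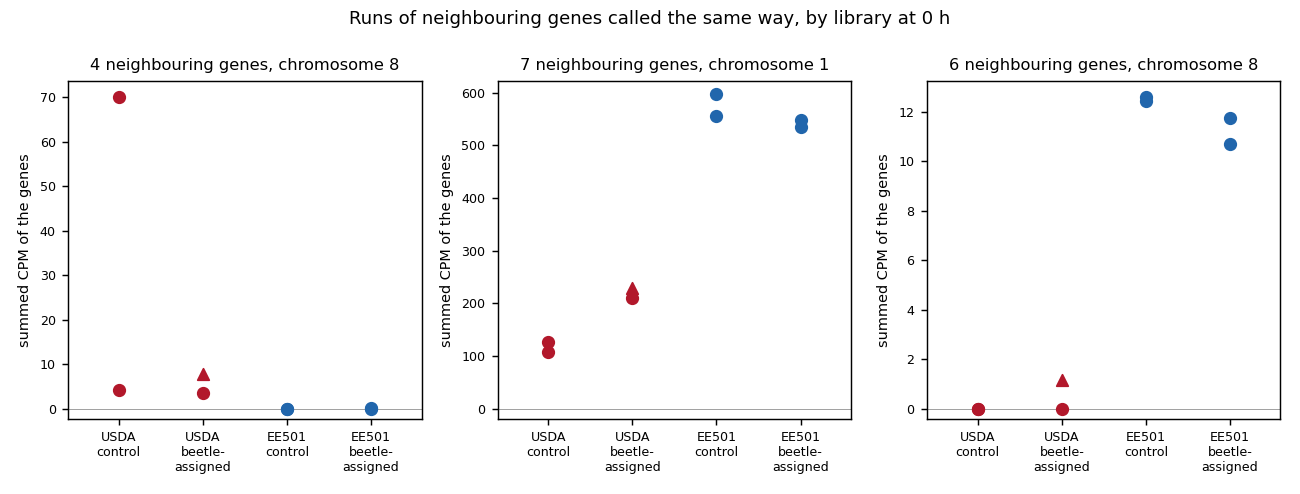
Summed CPM (y axes, linear) of 3 runs of neighbouring genes in each library at 0 h, by genotype and cage assignment, with USDA8380-1 in red, EE501F2_093 in blue and the shallow library as a triangle. The run of 4 genes stands at 70.1 CPM in 1 USDA8380-1 control library, the run of 7 genes at 107.9 to 229.0 CPM in USDA8380-1 below 534.2 to 597.4 CPM in EE501F2_093, and the run of 6 genes at 0 in 3 of 4 USDA8380-1 libraries.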

How the data were processed

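Per the labels' protocols, pooled leaf tissue gave stranded mRNA libraries with single reads of 50 nt. HTSeq, Picard, STAR 2.7.3a and Trimmomatic 0.35 are listed in the submitters' processing notes, where no settings are given. The genome build is not given in the sources used here. Raw counts were deposited per gene, as the authors' HTSeq step wrote them, for 32917 identifiers. The summary lines of HTSeq (at 0 h 7.76 to 17.4% of reads) entered neither library sizes nor tests.

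Genes passing filterByExpr (24870) were scaled by TMM and tested with edgeR 4.0.16 (R 4.3.3) in 1 fit of 24 libraries, 12 groups and 12 residual degrees of freedom. SE are the log2 fold change over the root of the quasi-likelihood F, and CPM are on the TMM scale. The 0 h contrast was the mean of both arms in USDA8380-1 minus that in EE501F2_093. Read fate and detection used exact permutation tests (SciPy 1.17.1). Alternatives included DESeq2 1.42.0, other scaling and filters, thinning and leaving out each library.

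The compared libraries, lists and tests were chosen with earlier results of these data known. Genes were named by the rule stated beside them, and other genes picked by a rule are given by chromosome because the files hold no names.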

Additional observations from a re-analysis of the deposited data

Results flagged for a closer look

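Taking 22 measures in the 4 libraries of each genotype gave 44 sets, and in 8 sets a single library lay far from the rest. In 6 of these it was the shallow library, USDA8380-1 beetle-assigned replicate 3. Chance flags about 1 in 20 such sets, a rate that does not apply where the other libraries are at 0, and the measures overlap.

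The count on genes was 2114184 in the shallow library and 30641544 to 36289770 in the rest of USDA8380-1. It had 21984 genes with at least 1 count against 25454 to 25740, and 15441 genes with at least 10 counts against 21647 to 22242. Genes of EE501F2_093 stood in it at 9.56% of their EE501F2_093 level, against at most 0.418% in the others. The 2 leading genes of the list read in EE501F2_093 had 0.394 and 0.788 CPM in it, against 0 and at most 0.0262 CPM in the other USDA8380-1 libraries.

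USDA8380-1 control replicate 2 had 70.1 CPM summed over the run of 4 genes on chromosome 8, against 3.61 to 7.88 CPM in the other USDA8380-1 libraries. EE501F2_093 beetle-assigned replicate 2 had 0.0545 CPM of the USDA8380-1 gene on chromosome 6, where the other 3 had 0.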

How the results depend on the processing

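The 4118 calls among 24870 genes tested became 2329 of 24870 with the replicate block (1244 higher, 1085 lower in USDA8380-1). With the 0 h libraries alone and thinned to 1 depth, 2588 of 16459 genes tested were called. Without thinning, the 0 h libraries alone gave 5225 of 23678 in 4 groups and 4422 of 22221 as 2 groups of 4. DESeq2 over all 24 libraries gave 5371 of 24870. Control plants had 1656 calls with the replicate block, 4055 in the 0 h libraries alone and 4300 in DESeq2. Beetle-assigned plants had 357, and 378 thinned, and 1496 in DESeq2. The interaction of genotype and arm had 12 calls in the 0 h libraries alone, 1 thinned and 66 in DESeq2. Leaving out 1 library gave 2119 to 3397 calls between genotypes, 545 to 996 in control plants, 114 to 927 in beetle-assigned plants and 0 to 185 for the interaction. The lowest, 2119, was without EE501F2_093 control replicate 2, with 962 higher and 1157 lower, and the balance also turned without EE501F2_093 beetle-assigned replicate 1 (1271 and 1348) or 2 (1045 and 1258). The cause was not tested. The highest counts for beetle-assigned plants and for the interaction came without USDA8380-1 beetle-assigned replicate 2. The shallow library was then the sole USDA8380-1 library of that set. The genotypes share 1 replicate number at 0 h and no label says that numbers pair libraries, so the replicate block compares libraries that share only a number. Thinning turned the order of the lists of genes read in 1 genotype, with 691 in USDA8380-1 and 454 in EE501F2_093. The genes at no count in the other genotype turned too, from 16 and 47 to 156 and 126. At that depth 3 counts allow a higher CPM, and the reason for the turn was not tested. Without the shallow library the difference in reads outside genes was -1.405 percentage points (exact permutation p = 0.171), against 0.718 with it, and that in ambiguous reads 0.00147 against -0.000654. Of 64 log2 fold changes of the named genes under other settings, 44 stayed called, 20 lost the call and 0 turned. With the block, Soltu.DM.09G025910.1 and Soltu.DM.04G023400.1 had edgeR adjusted p of 0.0576 and 0.0743.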
